A study of Mus musculus with 4 samples.

Results

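The cytosolic ribosomal protein genes were taken as every listed gene whose symbol is Rpl or Rps, a number and at most the letters a, l, x or y, together with Rplp0, Rplp1, Rplp2 and Rpsa, and without the Rps6k kinases. This rule used symbols only and found 81 of 14082 listed genes, 50 of the large and 31 of the small subunit. All 81 passed the filter on low counts. Their RNA was measured in bulk in CD8 T cells that recognise ovalbumin, sorted from subcutaneous E.G7 tumours, with 2 libraries in each of 2 groups. E.G7 cells are EL4 mouse lymphoma cells that were made to produce ovalbumin, and the hosts were 6 to 10 weeks old. Mice of both groups carried the floxed Smad4 alleles (Smad4-fl/fl). Those labelled WT had no Cre and those labelled KO also had Cd8-cre, which acts in cells that express CD8, so host cells that never express CD8 keep the floxed alleles, and the transplanted tumour cells do not carry them. The design has 1 comparison, KO over WT. Nothing in the labels tells whether a group's libraries were made from different mice, so the p-values reflect spread among the libraries that could be technical.

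The cytosolic ribosome translates every mRNA of the nucleus. Its small subunit reads the mRNA, its large subunit forms the peptide bond, and each ribosome holds a single copy of nearly every ribosomal protein, so the genes are transcribed at high levels. Their mRNAs begin with a C followed by a run of pyrimidines, the 5′ terminal oligopyrimidine or TOP element, through which mTORC1 and LARP1 set their translation. T cells raise ribosome production when they are activated. Ribosomal protein genes also have many processed pseudogenes, intronless copies left in the genome, and many of their introns encode small nucleolar RNAs that guide the modification of ribosomal RNA.

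The start regions of the 9 members that passed the test are shown first, to show which pyrimidine tracts lie near the annotated starts. Each line gives 40 bases before and 20 bases from the RefSeq start in GRCm38.p6, 5′ to 3′ on the coding strand. Capitals mark tracts of a C followed by at least 4 C or T within 25 bases of the start, and the sequence CCGGAAG, the core bound by ETS-family factors such as GABPA.
Rps26: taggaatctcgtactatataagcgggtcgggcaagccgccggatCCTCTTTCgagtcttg
Rps15a: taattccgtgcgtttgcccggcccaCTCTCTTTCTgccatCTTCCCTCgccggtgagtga
Rpl34: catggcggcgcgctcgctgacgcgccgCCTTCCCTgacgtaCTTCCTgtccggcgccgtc
Rpl37a: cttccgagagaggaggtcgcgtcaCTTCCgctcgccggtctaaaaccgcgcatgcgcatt
Rps6: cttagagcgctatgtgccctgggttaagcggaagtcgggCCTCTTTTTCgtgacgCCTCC
Rps27: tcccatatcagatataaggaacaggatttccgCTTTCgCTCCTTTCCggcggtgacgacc
Rplp0: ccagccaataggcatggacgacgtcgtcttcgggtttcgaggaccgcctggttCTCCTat
Rps15: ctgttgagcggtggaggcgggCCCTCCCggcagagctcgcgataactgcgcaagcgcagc
Rps27l: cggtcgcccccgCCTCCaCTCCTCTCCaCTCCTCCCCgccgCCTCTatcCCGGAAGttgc
The windows are chr10:128626487-128626546 for Rps26, chr7:118116128-118116187 for Rps15a, chr3:130730379-130730438 for Rpl34, chr4:86857348-86857407 for Rps6 and chr3:90213629-90213688 for Rps27, all on the minus strand. On the plus strand they are chr1:72711220-72711279 for Rpl37a, chr5:115559427-115559486 for Rplp0, chr10:80292391-80292450 for Rps15 and chr9:66946046-66946105 for Rps27l. Genes that fell and genes that rose both have a tract in the window, but a tract near an annotated start is not a TOP element at the start itself. The marked tract lies upstream of the annotated start in Rpl37a and Rps15 and downstream of it in Rps26 and Rplp0. For Rps26 the RefSeq start used is 241 bases from the gene's 5′ end in the GENCODE M21 annotation. RefSeq promoters were found for 61 members, of which 48 (78.7%) held the tract, against 53.1% of 11118 other listed genes. CCGGAAG on either strand was in 24 of the 61 (39.3%) and in 17.1% of the others, over 250 bases before and 50 after the start. TATAAA before the start was in 3.28% and 4.5%. GTCTAGAC, the palindrome bound by SMAD proteins, was in 0 of 61 and in 0.216% of the others. A match describes these letters and not a used site.

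All members matched a gene of the M21 annotation (GRCm38), and 80 were annotated as protein coding. The exception, Rpl32l, is a processed pseudogene there. The genes lay on 19 chromosomes, with 14 on chromosome 7. Their coding sequences were short, with a median of 453 bases against 1362 for all listed genes, and GC content was similar (medians 52.7% and 53.0%). Of the 81 loci, 29 held 56 annotated small nucleolar RNA genes. The coding sequence of 77 members shared at least 1 stretch of 50 bases with a gene elsewhere, in every case including a pseudogene. The median share of such stretches was 90.3%, and in 29 members every stretch had a copy elsewhere. Rpl3l and Rpl39l were among those that shared none, and Rpl32l has no coding transcript. How reads with more than 1 match were counted is not given in the sources used here, so values of single members could include or lack reads of their copies.

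Summed counts ranged from 24366540 to 26218277 per library. Members took 3.72% and 3.45% of counts in the WT libraries and 3.51% and 3.78% in the libraries labelled KO. The groups overlapped, at 3.58% ± 0.195 and 3.64% ± 0.187 (SD, n = 2 each, exact two-sided permutation p = 0.667, where 0.333 is the smallest possible). Smad4 had 752 and 736 counts in WT and 779 and 1088 in KO, so the targeted gene was not lower in the libraries labelled KO (log2 fold change 0.19, 95% confidence interval -0.12 to 0.49, edgeR adjusted p = 0.397). Directions below go by the labels. The sorted samples also held RNA of other cells. The 9 monocyte and macrophage markers summed to between 19350 and 20570 CPM (counts scaled to a common library total with TMM factors) over the 4 libraries. The 8 CD8 T cell markers summed to 2998 and 3038 CPM in WT and 2082 and 2063 in KO, with 6 of 8 lower. Their list also holds general T cell genes, so this sum does not separate CD8 T cells from other cells of the T lineage. The 8 neutrophil markers summed to 672 and 681 CPM in WT and 1927 and 1966 in KO, with 7 of 8 higher. No listed marker of these lists was at 0 in every library, and mitochondrially encoded genes took 10.3% ± 0.123 of counts in WT and 6.78% ± 0.299 in KO. The part of this mixture in the results was not tested, and in bulk RNA fewer cells of a type and less RNA per cell cannot be told apart.

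Ribosomal protein genes stood among the most abundant transcripts, and their order was nearly the same in every library. On the deposited FPKM scale, which is per length, the median member had a mean of 193.9 against 3.75 for all listed genes, and 57 members were above 100. Rplp0, the base of the ribosomal stalk, had the highest level, at 1005 and 926 FPKM in WT and 1109 and 1182 in KO. Rpl32 and Rps15 followed at a mean of 891 and 855 FPKM. The lowest Pearson correlation of log2 FPKM between any pair of libraries was 0.994 over 76 members with a mean of at least 200 counts, as a description of libraries that share gene lengths and copies.

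The plot of levels by gene shows a step down at the lower end. Rpl24, Rpl13a, Rpl36al and Rps10 had mean levels of 16.0, 14.6, 2.54 and 1.46 FPKM, although Rps10, Rpl13a and Rpl24 encode standard parts of the ribosome. These were the 4 members whose coding stretches lay mostly (over 50%) within an annotated gene that overlaps them on the same strand. For Rps10 that gene is a read-through transcript with Nudt3, and 91.3% of its coding stretches were in overlapping genes. The share was 81.8% for Rpl24, 97.5% for Rpl13a and 94.4% for Rpl36al. The other 76 members with a coding transcript had a median of 210 FPKM. How the authors' counting treated reads in overlapping genes is not given in the sources used here, so the levels of these 4 are uncertain.

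**Figure D1:**
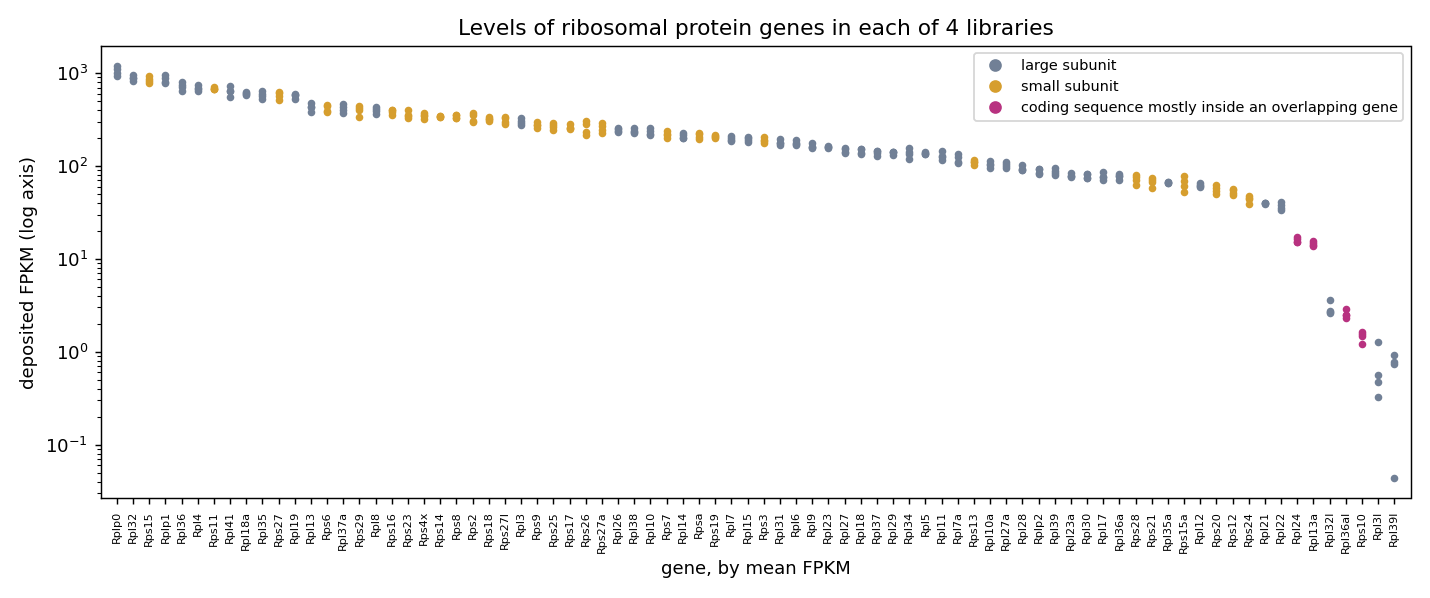
Deposited FPKM (log axis) of the ribosomal protein genes reported by name, in each of the 4 libraries, ordered by mean, with points for libraries and colours for the subunits and for the 4 genes that lie mostly inside an overlapping gene. Most genes sit above 100 FPKM, Rplp0 is highest, and Rps10 is among the lowest.

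Between the groups the ribosomal protein genes differed little. Among the 81 members, KO libraries had 3 higher and 6 lower (edgeR quasi-likelihood, Benjamini-Hochberg adjusted p under 0.05). Over all 13358 tested genes 21.2% were called, 10.1% higher and 11% lower, against 11.1% of the members. The members' median log2 fold change was -0.08, with the middle 50% between -0.13 and -0.01, where all genes had a median of -0.0037 and a middle range of -0.2189 to 0.215. Only Rpl3l and Rpl39l, both with few counts, had a fitted change over 1.5-fold, that is 2.47% of members against 17.8% of all genes. With library totals alone as the scaling, 6 members were higher and 2 lower (15.8% and 7.58% of all genes), and the median became 0.0092. With the summed member counts as each library's total, 1 was higher and 2 were lower (10.8% and 6.81%). DESeq2 called 3 higher and 8 lower (8.26% and 9.05%), limma-voom 3 and 7 (9.76% and 11%) and the GC correction 3 and 7 (10.6% and 11.1%). The replicate number as a block gave 1 and 5 (10.4% and 11.4%). Crossed numbers as a block, added after seeing the data, gave 5 and 24 (12.5% and 13.3%). The labels tie no libraries together, so no conclusion is drawn from the crossed block. RLE scaling (10.4% and 11%), upper quartile scaling (10.6% and 10.7%), TMM without the members (10.1% and 11%) or without mitochondrial genes (10.3% and 11%), no filter (9.41% and 10.3%) and at least 1 CPM in every library (11.8% and 12.5%) each gave 3 and 6.

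**Figure D2:**
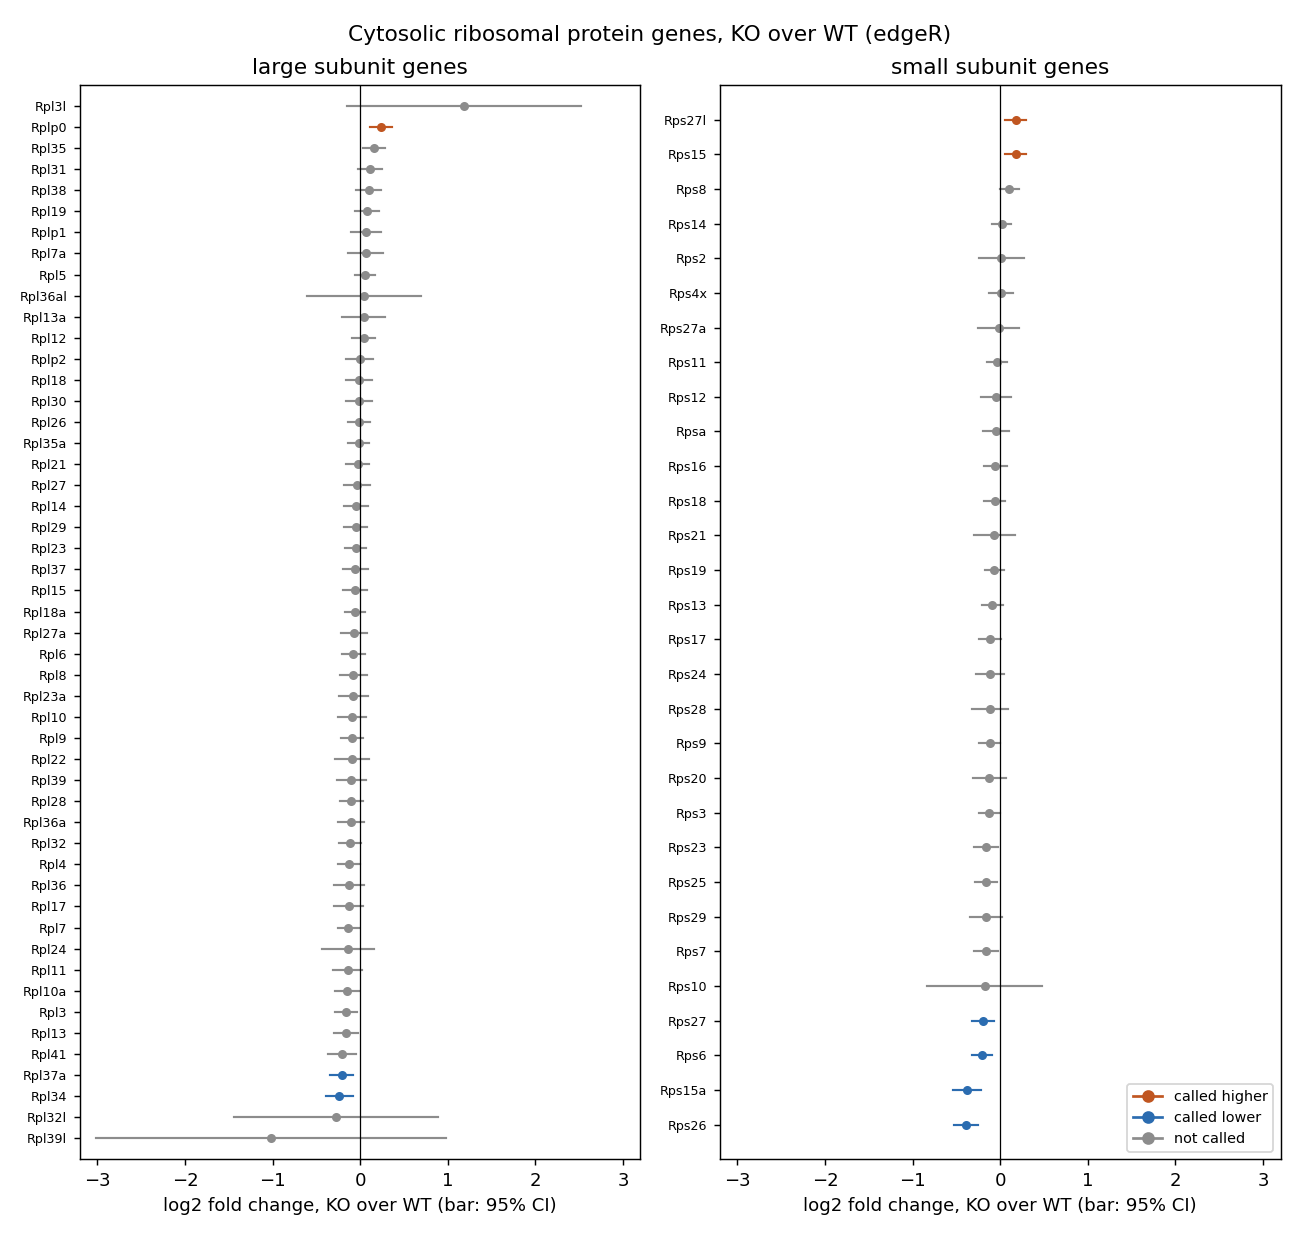
Log2 fold change (KO over WT) of the ribosomal protein genes reported by name, large subunit on the left and small subunit on the right, with bars for the 95% confidence interval. Orange marks the 3 genes called higher, blue the 6 called lower and grey the rest, and most intervals cross 0.

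The members moved together between libraries of the same genotype. Of 76 members with a mean of at least 200 counts, 71 were higher in WT replicate 1 than in WT replicate 2, with a median log2 difference of 0.12. In KO replicate 2, 70 of the 76 were higher than in KO replicate 1, with a median of 0.12 again. Over 9298 genes of that depth, 49% and 49.5% went the same way, with medians of -0.0034 and -0.0019. The difference of the KO mean from the WT mean had a median of -0.08 over these members, and 16 of the 76 were positive. Averaging libraries shrinks such a difference, so its size cannot be ranked against those between single libraries. The fitted median of all members, KO over WT, was -0.03 without WT replicate 1 and -0.12 without WT replicate 2. It was -0.0096 without KO replicate 1 and -0.14 without KO replicate 2. By median CPM deviation WT replicate 1 was highest and KO replicate 1 lowest. The number of calls changed with the library left out. Without WT replicate 1, 1 member was higher and 2 lower (5.18% and 6.03% of all genes), and without WT replicate 2 these were 0 and 11 (6.08% and 6.69%). Without KO replicate 1 they were 3 and 2 (11.2% and 12.6%), and without KO replicate 2 they were 3 and 20 (11.7% and 13%). These calls are edgeR's, with an unadjusted count of 3 higher at p under 0.05 where 0 were called.

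**Figure D3:**
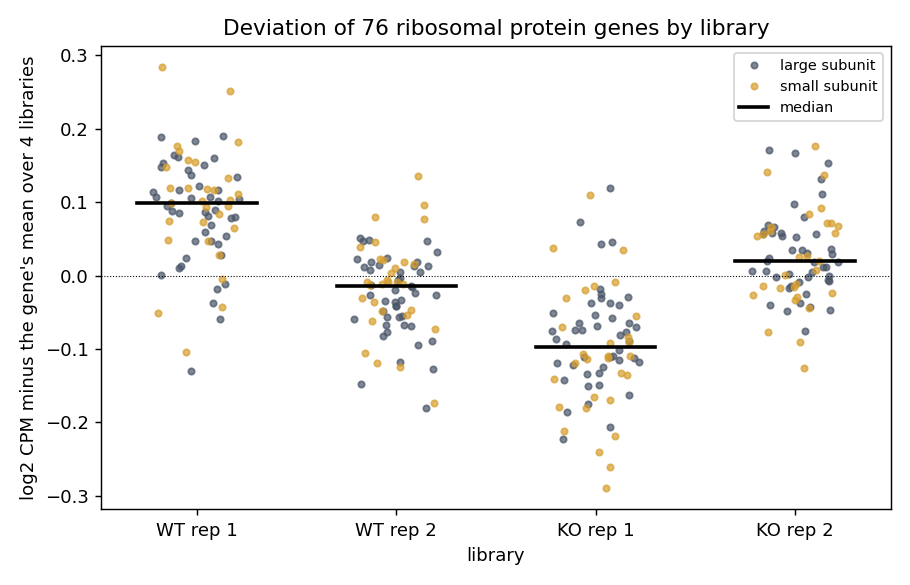
Log2 CPM of 76 ribosomal protein genes minus each gene's mean over the 4 libraries, by library, with 1 point per gene and a black bar for the median. The medians of WT replicate 1 and KO replicate 1 lie farthest apart, and the other libraries lie between them.

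In the small subunit 4 of 31 members were lower and 2 higher, a share called of 19.4%, near the 21.2% of all genes. Rps26, which lies at the channel where mRNA leaves the subunit, had 488 and 450 CPM in WT and 342 and 376 CPM in KO. Both KO libraries were below both WT libraries, and the log2 fold change was -0.39 ± 0.06 (SE, edgeR adjusted p = 0.000843), a fall of 23.5%. Rps15a had 507 and 445 CPM in WT and 341 and 391 CPM in KO. Its change was -0.38 ± 0.08 (SE, edgeR adjusted p = 0.00327), again without overlap. Rps26 and Rps15a kept their call under every one of the 17 alternatives run. Among these alternatives, the GC correction, crossed numbers and the summed member counts were added after seeing the data. As a share of all member counts, a measure that removes a shift common to the members, Rps26 took 1.28% and 1.27% in WT and 1.00% and 1.02% in KO. On that measure 17 members were above and 22 below in both KO libraries, where 33.1% and 22.2% of all tested genes were when divided by the same sums.

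Rps6, the substrate of the S6 kinases downstream of mTORC1, had 752 and 723 CPM in WT and 625 and 650 in KO. The groups did not overlap, and the log2 fold change was -0.21 ± 0.05 (SE, edgeR adjusted p = 0.0128). Rps27, a zinc-binding protein, had 682 and 664 CPM in WT and 560 and 614 in KO, a change of -0.20 ± 0.06 (SE, edgeR adjusted p = 0.0271). Both calls were lost without WT replicate 1, without KO replicate 1, under library totals alone and with the summed member counts as the total. That of Rps27 was also lost without WT replicate 2 and with the replicate number as a block, and the highest adjusted p over the alternatives was 0.345 for Rps6 and 0.39 for Rps27 (edgeR). Every coding stretch of Rps6 and of Rps27 has a copy elsewhere, so their counts are uncertain. The other called genes share this limit in part. The share with a copy was 84.2% for Rps15a, 81.5% for Rpl37a, 73.0% for Rps26 and 72.2% for Rpl34. For Rplp0, Rps27l and Rps15 it was 60.3%, 48.3% and 43.3%. Rps27rt, a retrocopy of Rps27 outside the rule and chosen after its values were seen, had 28.6 and 27.1 CPM in WT and 23.2 and 25.2 in KO, and did not pass (log2 fold change -0.20, edgeR adjusted p = 0.265).

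Rps27l, a paralog of Rps27 known as a target of p53, went the other way. It had 244 and 249 CPM in WT and 283 and 275 CPM in KO, a log2 fold change of 0.18 ± 0.05 (SE, edgeR adjusted p = 0.0361). On the per-length FPKM scale it stood at 45.7% and 48.0% of Rps27 in the WT libraries and at 64.6% and 57.2% in the KO libraries. This ratio does not depend on the scaling of a library. Its groups did not overlap, which follows from the CPM of both genes lying apart in opposite directions and is not a separate result. Rps15, a protein of the subunit's head near the decoding site, had 537 and 510 CPM in WT and 570 and 614 in KO, a change of 0.18 ± 0.06 (SE, edgeR adjusted p = 0.0438). Leaving out either WT replicate, the replicate number as a block and the summed member counts as the total each ended both calls, as did leaving out KO replicate 1 for Rps27l and KO replicate 2 for Rps15. Over the alternatives the log2 fold change stayed between 0.16 and 0.26 for Rps27l and between 0.12 and 0.26 for Rps15, and adjusted p-values reached 0.237 for Rps27l and 0.259 for Rps15 (edgeR).

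Other small subunit members did not pass. Rps2 and Rps3, which line the channel where mRNA enters, had log2 fold changes of 0.01 and -0.13, and Rps10 and Rps20, which are ubiquitinated when ribosomes collide, had -0.18 and -0.12. Rps27a, made as a fusion to ubiquitin, had -0.02, with a 95% confidence interval of -0.25 to 0.21. Rps19, a protein of the subunit's head, had 1031 and 1039 CPM in WT and 974 and 1004 in KO (edgeR adjusted p = 0.401). The X-linked Rps4x had 0.01, with an interval of -0.13 to 0.15.

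In the large subunit 1 of 50 members was higher and 2 lower, beside 10.1% and 11% of all genes. Rplp0 anchors the stalk that recruits the elongation factors. It had 1734 and 1593 CPM in WT and 1899 and 2028 CPM in KO, a log2 fold change of 0.24 ± 0.06 (SE, edgeR adjusted p = 0.0107), a rise of 18.1%, with both KO libraries above both WT libraries. The call was lost without WT replicate 2 or KO replicate 2, where its highest adjusted p was 0.12 (edgeR). It took 4.53% and 4.48% of all member counts in WT and 5.57% and 5.53% in KO. The partners of Rplp0 did not pass: Rplp1 and Rplp2, which form the tip of the stalk, had log2 fold changes of 0.07 and -0.0048, and Rpl12, at its base, 0.04. Their 95% confidence intervals were -0.10 to 0.24, -0.16 to 0.15 and -0.09 to 0.17. Whether Rplp0 differs from its partners was not tested.

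Rpl34 had 429 and 390 CPM in WT and 323 and 372 in KO, and Rpl37a, a zinc-binding protein, had 679 and 626 CPM in WT and 537 and 590 in KO. Their log2 fold changes were -0.24 ± 0.07 and -0.21 ± 0.06 (SE, edgeR adjusted p = 0.0325 and 0.0280). Neither pair of groups overlapped, but the margins were narrow, and both calls were lost without WT replicate 1, without KO replicate 1, under library totals alone and with the summed member counts as the total (highest edgeR adjusted p 0.24 and 0.333 over the alternatives). Rpl5 and Rpl11, which carry the 5S ribosomal RNA and can bind the p53 regulator Mdm2, had -0.14 for Rpl11 and 0.05 for Rpl5, and neither passed. Of 7 proteins around the exit of the peptide tunnel, 0 were called by edgeR, DESeq2 or limma-voom, while each tool had 1 higher by unadjusted p (under 0.05). Changes ran from -0.13 for Rpl17 to 0.16 for Rpl35 (edgeR adjusted p = 0.0706), and 66.2% of the exon bases of Rpl35 lie under genes of the opposite strand, so it is uncertain. With library totals alone as the scaling in edgeR, 2 of the 7 were higher (15.8% of all genes), and with crossed numbers 1 was (12.5%).

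**Figure D4:**
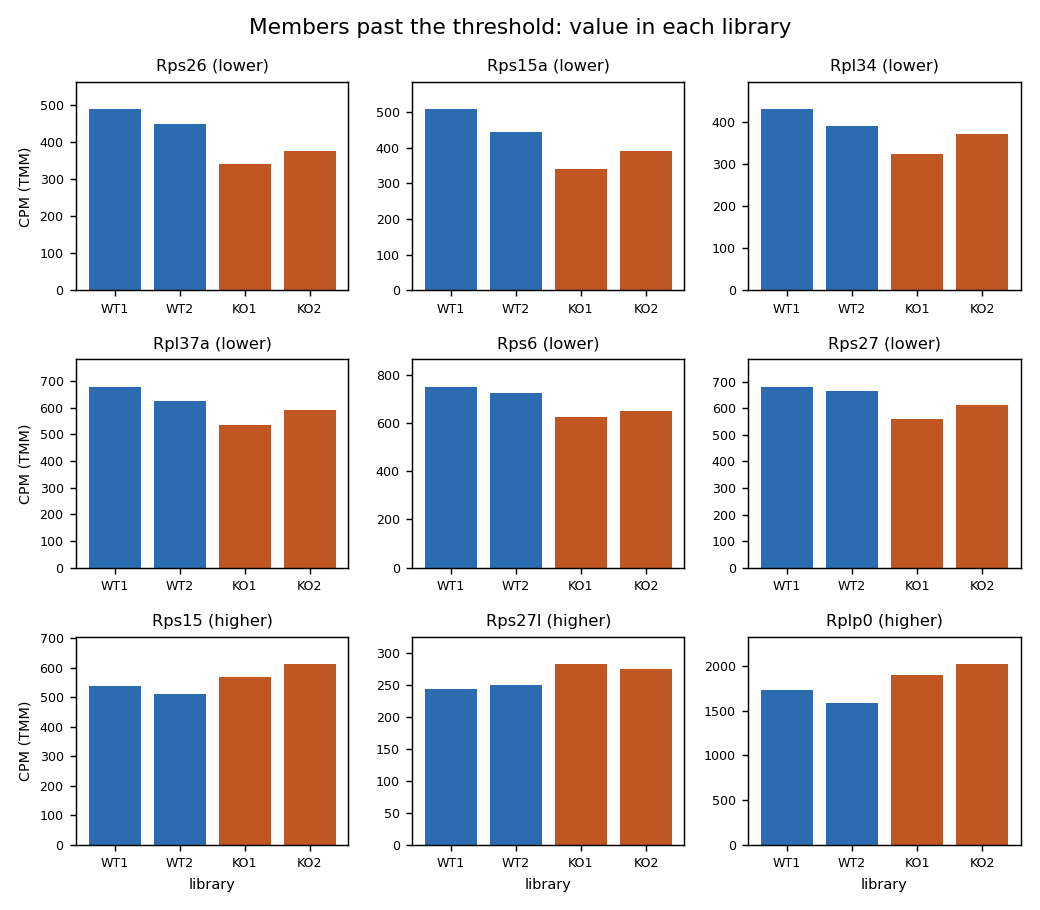
CPM (TMM scaled) in each of the 4 libraries for the 9 ribosomal protein genes that passed the test, with bars from 0, blue for WT and orange for KO. In each panel both KO bars are on the same side of both WT bars, and the differences are small beside the bars' height.

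Members were also compared without the test. Both KO libraries were below both WT libraries for 30 of 81 members, where 30% of all tested genes were, and above them for 8, where 29.7% of all genes were (59.8% in either direction). GC content moved little with the change: over 76 members the Pearson correlation of log2 fold change with GC content of the coding sequence was 0.115, as a description of genes that share these libraries. The 16 members with at least 10% of exon bases under another gene included 0 of the 9 called genes.

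The paralogs Rpl3l and Rpl39l were close to the limit of detection. Rpl3l, the striated muscle form of Rpl3, had 19 and 14 counts in WT and 57 and 26 in KO, and its log2 fold change of 1.19 had an interval of -0.15 to 2.53 (edgeR adjusted p = 0.207). Rpl39l, a form of Rpl39 enriched in testis, had 19 and 16 counts in WT and 1 and 18 in KO, so its fitted change of -1.02 rests on KO replicate 1 (edgeR adjusted p = 0.491). Rpl36al, whose level is uncertain because of the gene that overlaps it, had 83 and 88 counts in WT and 86 and 108 in KO. The retrocopy Rpl32l had 27, 37, 29 and 29. Their counterparts were far more abundant, and Rpl3l and Rpl39l stayed under 1% of the FPKM of Rpl3 and Rpl39 in every library. Rpl3 and the X-linked Rpl39, Rpl36a and Rpl10 had log2 fold changes of -0.16, -0.10, -0.11 and -0.09, and none passed (edgeR adjusted p from 0.0732 to 0.431).

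Some ribosomal proteins have symbols outside the rule. Rps3a1, a small subunit protein, fell as Rps26 did, with 735 and 654 CPM in WT and 521 and 562 in KO (log2 fold change -0.36 ± 0.06, SE, edgeR adjusted p = 0.00166). Rpl22l1, a paralog of Rpl22, had 79.4 and 72.6 CPM in WT and 58.8 and 62.8 in KO (-0.32 ± 0.08, SE, edgeR adjusted p = 0.0145). Fau, which encodes a ribosomal protein fused to a ubiquitin-like chain, Rack1 and Rpl7l1 did not pass, at log2 fold changes of -0.05, 0.06 and 0.02. Copies elsewhere were searched for the members only, so how far the counts of these genes include reads of copies is not known. Rpl10l and Rps4l were not in the tables used here.

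The list of genes that build ribosomes was described in the same way, beside 21.2% of all genes called, 10.1% higher and 11% lower. All 21 nucleolar assembly factors had positive log2 fold changes, with 9 called higher and 0 lower (edgeR), and a median of 0.26. Unadjusted at p under 0.05 there were 13 higher and 0 lower, and DESeq2 and limma-voom also called 9 and 0. Library totals alone gave 15 higher, beside 15.8% of all genes. Nop2, an rRNA methyltransferase, had 86.2 and 92.1 CPM in WT and 129 and 120 in KO (0.48, edgeR adjusted p = 0.000373). Nhp2 and Nop58, parts of the small nucleolar ribonucleoproteins, changed by 0.41 and 0.38. Of 6 dedicated chaperones of ribosomal proteins 1 was higher, Grwd1, which escorts Rpl3 (0.47, edgeR adjusted p = 0.00201). The marker sums and the mitochondrial share given above moved between the same groups, and their part was not tested.

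Mitochondrial ribosomal proteins, which belong to the ribosome of the organelle, had a median of 0.16, and 66 of 77 were positive. Of the 77, 17 (22.1%) were higher and 0 lower (edgeR), where 10.1% of all genes were higher and 11% lower. Unadjusted at p under 0.05 there were 31 and 2. DESeq2 called 10 and 0 (8.26% and 9.05% of all genes) and limma-voom 17 and 0 (9.76% and 11%). Without WT replicate 1 or 2 the number higher was 1 or 3, where 5.18% and 6.08% of all genes were higher, and with library totals alone it was 35, where 15.8% were. Mrpl42, Mrpl16 and Mrps27 changed by 0.30, 0.42 and 0.45. They took 0.399% and 0.408% of counts in WT and 0.477% and 0.469% in KO, whereas the shares of the cytosolic proteins overlapped between the groups. The difference between the lists was not tested.

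Translation factors were called in both directions. Of 11 elongation and termination factors 4 were higher and 2 lower, beside 10.1% and 11% of all genes, or 2 and 1 without WT replicate 1 (5.18% and 6.03% of all genes). Eef1a1, which brings aminoacyl-tRNA to the ribosome, fell from 4068 and 3561 to 2647 and 3001 CPM (log2 fold change -0.43, edgeR adjusted p = 0.000962). Eef1g and Eef1d, of the complex that recharges it with GTP, were higher by 0.27 and 0.26. Of 35 initiation factors 6 were higher and 2 lower, a share called of 22.9%, near the 21.2% of all genes. Those called included Eif3b and Eif2b3 (0.35 and 0.46) and the scaffold gene Eif4g3 (-0.56). Library totals alone gave 12 and 1 (15.8% and 7.58% of all genes), and leaving out WT replicate 1 gave 1 and 1 (5.18% and 6.03%).

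The list of other mRNAs with a TOP element shares genes with the elongation factors, among them the called Eef1a1 and Eef1g. It had 1 higher and 5 lower of 16, beside 10.1% and 11% of all genes, and a median of -0.07. With library totals alone these were 3, 2 (15.8% and 7.58% of all genes) and 0.01. Leaving out WT replicate 1 left 2 lower (6.03% of all genes), and leaving out WT replicate 2 or KO replicate 1 left 3 (6.69% and 12.6%). Besides Eef1a1, the lower ones included Tpt1, at 387 and 380 CPM in WT and 308 and 316 in KO (-0.30, edgeR adjusted p = 0.00159). Of 15 genes of the mTORC1 and LARP1 pathway 4 were higher and 1 lower, beside 10.1% and 11% of all genes, or 2 and 2 without WT replicate 1 (5.18% and 6.03%). Eif4ebp1, which holds back cap-dependent initiation until mTORC1 phosphorylates it, rose by 0.41, and the mTORC1 inhibitor Ddit4 by 0.62, while Pdcd4, an inhibitor of the helicase Eif4a, fell by 0.48 on the log2 scale. Of 8 ribosome rescue genes, 1 was lower, Gtpbp2 (-0.36, edgeR adjusted p = 0.0214). That is 12.5% of the list, near the 11% of all genes that were lower, and the call did not hold without either WT replicate.

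**Figure D5:**
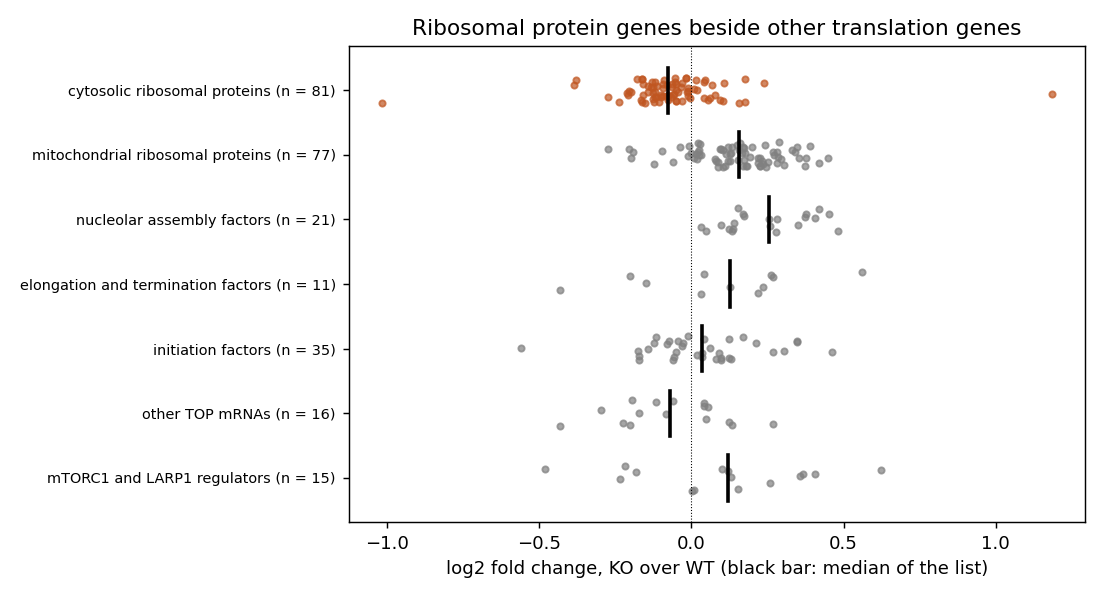
Log2 fold change (KO over WT) of single genes in 7 lists of translation genes, with a black bar for each list's median and orange for the cytosolic ribosomal proteins. Cytosolic ribosomal proteins centre at -0.08, mitochondrial ribosomal proteins at 0.16 and nucleolar assembly factors at 0.26. The lists overlap, as Eef1a1 and Eef1g are among both the elongation factors and the other TOP mRNAs.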

How the data were processed

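Tables of 14082 genes gave a deposited count of reads (raw whole numbers) and an FPKM for every gene of a library. The FPKM values were computed by the authors, per the file headers, and were used only for levels. Listed in the submitters' processing notes, without roles, are featureCounts, Bowtie2, DESeq2, edgeR and Trim Galore 0.4.4, with the build mm10. Not given in the sources used here are the annotation, strandedness and treatment of reads with several matches.

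The test was edgeR 4.0.16 under R 4.3.3 (TMM, filterByExpr, robust glmQLFit and glmQLFTest), with Benjamini-Hochberg adjustment over 13358 genes. The filter removed 724 genes. The fitted common biological variation was 9.31%. CPM are TMM scaled, and each standard error was derived from the F statistic of its log2 fold change. Same-group libraries were not duplicates (chi-square per degree of freedom 7.39 and 9.72). Coordinates, coding sequences and overlaps are from GENCODE M21 (GRCm38), and start regions from RefSeq (GRCm38.p6), where a gene with several starts was read at the one nearest its M21 start. Copies were exact matches of 50 bases in the transcripts of other genes. They were searched for the members only, so the counts of other named genes carry the same uncertainty unmeasured. Genes were named by a rule: up to 8 called members in each direction, fixed paralogs, the 3 highest and lowest by FPKM, and up to 3 called genes of each other list. Others were named for their role, and some genes are counted but not reported by name here or in the plots by gene. The members and lists were chosen with earlier results of these data known. Alternatives were other scalings and filters, DESeq2 1.42.0, limma-voom (limma 3.58.1), the replicate number as a block and leaving out each library. A GC correction, crossed numbers, the summed member counts as the total, and members little overlapped by other genes were added after seeing the data.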

Additional observations from a re-analysis of the deposited data

How the results depend on the processing

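The 9 called members were the same under RLE and upper quartile scaling, TMM without the members, TMM without mitochondrial genes and both other filters. The same 9 were also called with DESeq2 (3 higher, 8 lower), limma-voom (3 and 7) and the GC correction (3 and 7). Library totals alone gave 6 higher and 2 lower members, 2105 higher genes in all against 1354, 80 genes of the other translation lists against 52, and a member median of 0.0092. With the summed member counts as the total, 1 member was higher and 2 were lower, with 1 called in the large and 2 in the small subunit, and 910 genes in all were lower against 1472. Leaving out each library in turn gave 0 to 3 higher and 2 to 20 lower members, 1 to 11 called in the large and 2 to 12 in the small subunit, 714 to 1605 higher and 831 to 1787 lower genes in all, and 21 to 58 genes of the other translation lists. The count of 0 higher came without WT replicate 2 in edgeR, the tool used for these fits, where 3 were higher at an unadjusted p under 0.05. The median of the members stayed below 0, from -0.14 to -0.0096. With the replicate number as a block, 1 member was higher and 5 lower, with 3 called in the small subunit. Same-numbered libraries deviated with a correlation of -0.113 over 9298 genes and -0.556 over the members among them, and the labels tie the numbers to no shared animal or batch, so they were not treated as pairs. Crossed numbers as a block, added after seeing the data, gave 5 higher and 24 lower members, 13 in the large and 16 in the small subunit. Leaving out members overlapped by other genes could not change the main counts of called members, as 0 of the 9 called were among those left out. The difference in the members' share of counts was 0.061 percentage points, -0.0867 without mitochondrial genes in the denominator and 0.359 by summed FPKM. Some log2 fold changes that did not pass turned sign when a library was left out, with a range of -0.1198 to 0.1881 for Rpl36al, -0.0843 to 0.1091 for Rps4x, -0.2004 to 0.0232 for Rpl10, -0.1525 to 0.0444 for Fau, -0.0037 to 0.0455 for Rpl7l1 and -0.0632 to 0.3984 for Smad4. Fau also turned with library totals (0.0323) and the summed member counts (0.008). The causes were not tested. Depth did not limit the abundant members, whereas Rpl3l, Rpl39l and Rpl32l rest on few counts.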
